A study of Homo sapiens with 12 samples.

Results

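The transcripts of 10 antiviral effector genes were followed through the poly I:C response of a human salivary cell line, with and without 2 compounds. The genes were MX1, MX2, IFI6, IFI27, IFI44, IFI44L, RSAD2, BST2, IFITM1 and IFITM3. They were taken by name from the gene models of the deposited files, 10 of 60609 genes. The rule used names and no measured value, but it was set with earlier results of these data known. All 10 passed the filter on low values, which kept 17185 genes, although MX2, IFI44, IFI44L and RSAD2 passed it only through their levels with poly I:C, so counts over the set are descriptions.

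NS-SV-AC is a clonal acinar line made from human salivary gland cells immortalised with a viral oncogene, so every group came from 1 line. Polyadenylated RNA was sequenced as stranded read pairs, in 6 groups of 2 libraries. Cells received the solvent DMSO alone, 2-CM (2'-C-methyladenosine, a ribose-modified adenosine analogue known as a chain terminator for viral and mitochondrial RNA polymerases) or RES (resveratrol, a plant polyphenol). Transfection followed, either of poly I:C, which is a man-made double strand of RNA, or of the control written as depc in the labels. The 3 groups without poly I:C were thus DMSO with depc, 2-CM with depc and RES with depc, and the 3 others were the same compounds with poly I:C. Each compound was added 24 h ahead of transfection and once more during it, at 20 in a unit read here as micromolar, with an equal volume of DMSO for the controls. The poly I:C exposure lasted 14 h and growth took 48 h. The study's topic is double-stranded RNA of mitochondria in Sjögren's syndrome, an autoimmune disease of salivary and tear glands, and the groups ask how the compounds alter the response to double-stranded RNA. The labels do not say whether the 2 replicates of a group were separate cultures, so p-values measure the spread between these libraries, which may be technical.

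Double-stranded RNA in the cytosol is read by RIG-I (gene DDX58) and MDA5 (gene IFIH1), which signal through MAVS to switch on interferon beta and the interferon lambdas. Secreted interferon then acts through the kinases JAK1 and TYK2, and transcription factors that include IRF9 bind interferon-stimulated response elements upstream of antiviral genes. The products of the 10 genes act at different steps of infection. The IFITM proteins sit in membranes and hinder fusion of incoming virus, the MX proteins are dynamin-like GTPases that trap viral nucleoproteins or capsids, RSAD2 (viperin) makes a chain-terminating nucleotide, and BST2 (tetherin) holds budding virions at the cell surface. IFI6 and IFI27 are small hydrophobic membrane proteins of a common family, and IFI44 and IFI44L are related cytoplasmic proteins encoded side by side. Several of these genes belong to the interferon signature measured in blood and glands of patients with Sjögren's syndrome.

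The sequence before the start site is shown first, because these genes are known for response elements there. RefSeq promoters (build GRCh38.p14) matched 9 of the 10 genes. Each start was read against the deposited transcripts, and the start that carried most of the gene's abundance in the poly I:C libraries is used. It carried 94.9% to 96.2% of the TPM (a transcript's length-corrected share of its library) of IFITM1, 98.4% to 99.3% of that of IFITM3, 80.1% to 88.9% of that of IFI27, 99.6% to 99.8% of that of BST2 and 89.1% to 94.4% of that of MX1. The 250 bases before those starts are printed 5′ to 3′ on the strand of the gene, with capitals for each match, on either strand, to GAAANNGAAA or GAAANGAAA, the core letters of the interferon-stimulated response element with a spacer of 2 or 1 bases. The windows are chr11:313790-314039 on the plus strand for IFITM1, chr11:320861-321110 on the minus strand for IFITM3, chr14:94110486-94110735 on the plus strand for IFI27, chr19:17405631-17405880 on the minus strand for BST2, and chr21:41425989-41426238 on the plus strand for MX1.

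IFITM1: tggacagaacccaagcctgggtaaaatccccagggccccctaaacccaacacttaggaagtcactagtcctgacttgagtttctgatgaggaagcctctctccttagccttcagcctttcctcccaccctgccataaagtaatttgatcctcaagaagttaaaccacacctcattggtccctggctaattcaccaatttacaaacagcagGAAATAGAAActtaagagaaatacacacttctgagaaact

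IFITM3: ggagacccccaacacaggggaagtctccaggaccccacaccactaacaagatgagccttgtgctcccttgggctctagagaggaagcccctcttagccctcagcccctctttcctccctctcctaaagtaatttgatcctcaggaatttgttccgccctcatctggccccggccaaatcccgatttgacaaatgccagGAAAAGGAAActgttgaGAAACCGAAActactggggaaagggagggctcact

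IFI27: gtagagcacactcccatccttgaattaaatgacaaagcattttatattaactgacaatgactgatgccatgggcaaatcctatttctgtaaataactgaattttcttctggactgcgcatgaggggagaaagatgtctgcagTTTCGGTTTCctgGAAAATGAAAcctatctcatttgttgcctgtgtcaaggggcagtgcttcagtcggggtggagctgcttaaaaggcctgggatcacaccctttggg

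BST2: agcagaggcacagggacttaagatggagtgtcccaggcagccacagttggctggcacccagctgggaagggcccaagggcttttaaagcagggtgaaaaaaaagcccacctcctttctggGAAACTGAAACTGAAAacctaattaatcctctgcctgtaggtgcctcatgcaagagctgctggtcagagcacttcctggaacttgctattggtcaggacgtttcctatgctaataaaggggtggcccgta

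MX1: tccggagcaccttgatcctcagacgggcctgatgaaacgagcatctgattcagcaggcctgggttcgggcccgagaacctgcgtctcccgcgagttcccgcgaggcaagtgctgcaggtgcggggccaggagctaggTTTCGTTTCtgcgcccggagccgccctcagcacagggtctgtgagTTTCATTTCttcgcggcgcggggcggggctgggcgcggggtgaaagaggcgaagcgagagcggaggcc

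IFITM1 held 1 match to the longer motif and its first base lay 40 bases before the start, while IFITM3 held 2, the nearer of them 35 bases before the start. IFI27 held 2 matches on opposite strands, the nearer 95 bases before the start. BST2 held 2 that overlap each other by a shared GAAA, the nearer 124 bases before the start. MX1 held none of the longer motif and 2 of the shorter one, the nearer 68 bases before the start. In the same 250 bases of all 35116 RefSeq promoters, 3.02% held GAAANNGAAA and 2.69% held GAAANGAAA. The motifs were chosen with these promoters in view, and a match is a description of the letters, not of a bound site.

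Of the other promoters the stretch around the match nearest to the start is enough to show the spacing. The stretches lie at chr1:27672256-27672305 on the minus strand for IFI6, chr1:78649757-78649805 on the plus strand for IFI44, chr1:78620355-78620404 on the plus strand for IFI44L and chr2:6877612-6877661 on the plus strand for RSAD2. IFI6 held 3 matches to the longer motif, IFI44L held 2 and RSAD2 held 1, whereas IFI44 held 1 of each motif, overlapping.

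IFI6: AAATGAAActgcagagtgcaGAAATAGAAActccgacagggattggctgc

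IFI44: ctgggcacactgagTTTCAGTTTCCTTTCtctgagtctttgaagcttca

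IFI44L: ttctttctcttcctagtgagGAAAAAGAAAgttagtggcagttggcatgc

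RSAD2: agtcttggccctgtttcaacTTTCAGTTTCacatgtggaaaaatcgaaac

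The palindromic letters TTCNNNGAA, the core of another cytokine-responsive element, occurred 2 times upstream of BST2 and 1 time each upstream of IFI27 and IFITM1, and were in 6.57% of all promoters. They were not found in the 250 bases used for MX1, IFI6, IFI44, IFI44L, RSAD2 and IFITM3.

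Libraries differed in ways the groups do not explain, and this touches the genes unequally. Estimated reads on transcripts ran from 31.2 to 49.4 M per library. In all 6 groups the replicates were pulled apart along base composition, least in 2-CM with poly I:C. Across 17025 genes the difference of replicate 1 from replicate 2 had a Spearman correlation with GC content of -0.78 in DMSO with poly I:C and 0.78 in RES with poly I:C, the opposite direction, against -0.44 in 2-CM with poly I:C. RES depc, DMSO depc and 2-CM depc had -0.79, -0.69 and -0.55. The median absolute difference between replicates was largest in RES depc, at 0.60, so comparisons with that group share this limit. The main transcripts of IFI44L, IFI44 and RSAD2 are the AT-rich ones of the set, with 37.7%, 39.1% and 41.6% GC, while the other 7 lie between 49.3% and 58.1%. With poly I:C the main transcript carried only 26.5% to 33.3% of the TPM of IFI27. It carried 47.2% to 62.4% for IFI44L, 56.4% to 62.0% for IFI6 and at least 69.6% for each other member. In DMSO with poly I:C, replicate 1 exceeded replicate 2 by 1.48 for IFI44L, 1.12 for IFI44 and 1.01 for RSAD2 on the log2(TPM + 1) scale, and for BST2 the difference was -0.35. In RES with poly I:C the same differences were -1.53, -1.19 and -1.33, and 0.15 for BST2. The plot of replicate differences against GC content shows this ordering, and its part in the results below was not tested beyond the correction given beside them. A second limit is the scale. With 2-CM, the median gene tested was higher by 0.61 with poly I:C than with depc in TPM, by 0.18 after upper-quartile scaling and by 0.03 after median-of-ratios scaling.

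**Figure D1:**
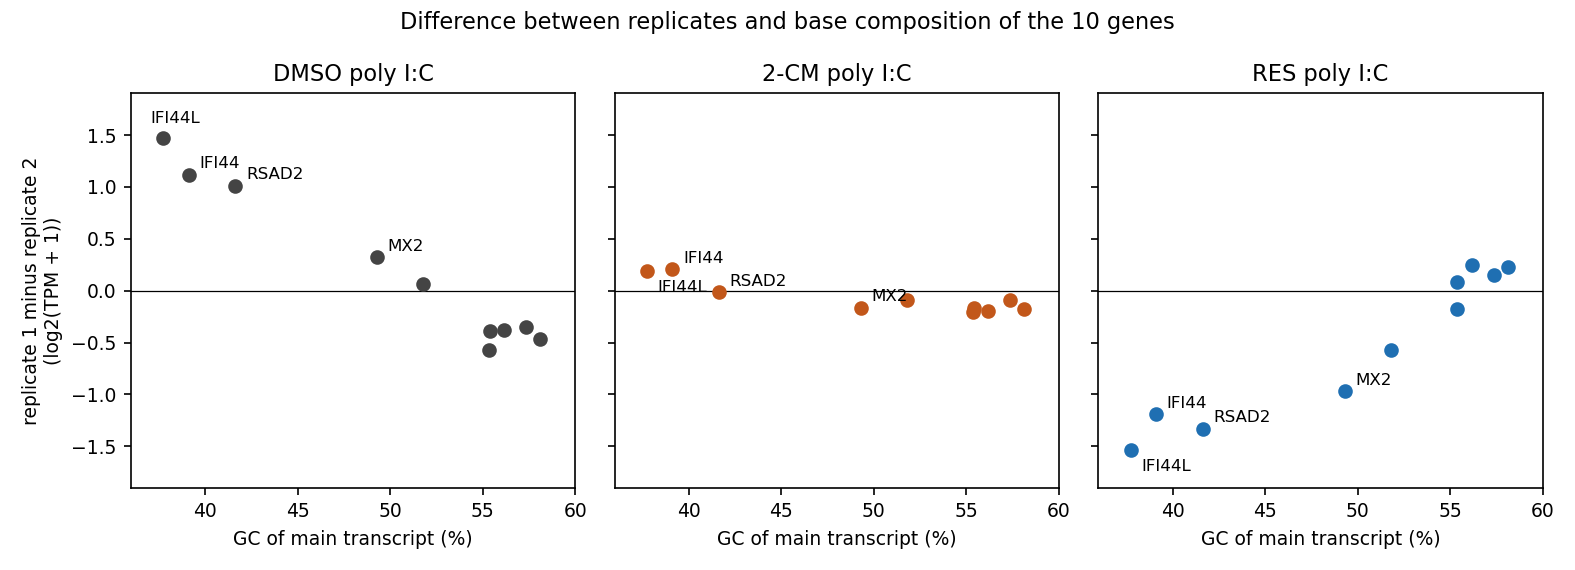
Difference between replicate 1 and replicate 2 in log2(TPM + 1) for the 10 genes (points, 1 per gene) against the GC percentage of the main transcript, in the 3 groups given poly I:C. IFI44L, IFI44 and RSAD2 are high in replicate 1 of the DMSO group and low in replicate 1 of the RES group, and the 2-CM replicates lie within 0.21 of each other.

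Of 5 epithelial markers, KRT8 and KRT18 stood far above the rest, while KRT19 and CDH1 stayed under 1 TPM in all 12 libraries. That list summed to 2301 and 2494 TPM in DMSO with depc and to 1099 and 1733 with poly I:C, and under 2-CM and RES too both poly I:C libraries lay below both depc libraries. Of 5 markers of fibroblasts and endothelium, COL1A1 was the highest and 3 stayed under 1 TPM in every library. Their sum also lay lower with poly I:C under each compound, at 75.8 and 81.8 against 20.1 and 22.5 TPM under DMSO. Of 6 acinar markers, the water channel AQP5, PRB1, STATH and MUC7 were at 0 in every library and 5 were under 1 TPM, so keratin RNA was plentiful and RNA of these acinar secretory products was not detected. Of 6 immune markers, the leukocyte marker PTPRC and the T-cell marker CD3E were at 0 in every library, and the list summed to between 9.93 and 23.8 TPM, mostly from CD14 and CD68. Of 3 markers of plasmacytoid dendritic cells, a type known for interferon, LILRA4 was at 0 in every library and CLEC4C was above 0 only in DMSO with poly I:C, at 0.282 and 0.129 TPM. That list summed to between 1.82 and 7.64 TPM, nearly all of it IL3RA, and was highest in the 4 RES libraries. The part of these transcripts in the results was not tested. The RNA came from whole cultures, so more responding cells and more RNA per cell cannot be told apart.

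The 10 genes covered a wide range of levels before any poly I:C. Together they held 0.0976% and 0.108% of all TPM in DMSO with depc and 0.333% and 0.427% in DMSO with poly I:C. IFITM3 was the most abundant at 643 and 727 TPM in DMSO with depc, which placed it among the 170 highest genes in both libraries. BST2 followed at 234 and 243, IFI6 at 68.5 and 78.4, IFITM1 at 13.7 and 15.9 and MX1 at 14.0 and 13.8 TPM. IFITM1 and MX1 overlapped, so their order is not resolved, and the other neighbours down to MX1 were apart in both libraries. The remaining 5 genes were below 1 TPM in DMSO with depc. IFI27 stood at 0.619 and 0.752, MX2 at 0.704 and 0.187, IFI44 at 0.441 and 0.173, IFI44L at 0.231 and 0.0851 and RSAD2 at 0.101 and 0.0285 TPM, each overlapping its neighbour in the order. RSAD2 rested on an estimated 9.42 and 2.93 reads there, so its level before poly I:C is barely resolved. MX2 rested on an estimated 22.1 and 20.2 reads, nearly equal although its TPM was 0.704 and 0.187. The set thus held a group with a high resting level (IFITM3, BST2 and IFI6), a middle pair (IFITM1 and MX1) and a group near 0.

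With poly I:C under DMSO the order by mean level became IFITM3, IFI6, BST2, IFITM1, MX1, IFI27, MX2, IFI44, RSAD2 and IFI44L. Each gene from IFITM3 to IFI27 was apart from the next in both libraries, and MX2, IFI44, RSAD2 and IFI44L overlapped. IFITM3 made up 65.9% and 67.3% of the set's TPM in DMSO with depc but 41.7% and 44.9% in DMSO with poly I:C.

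**Figure D2:**
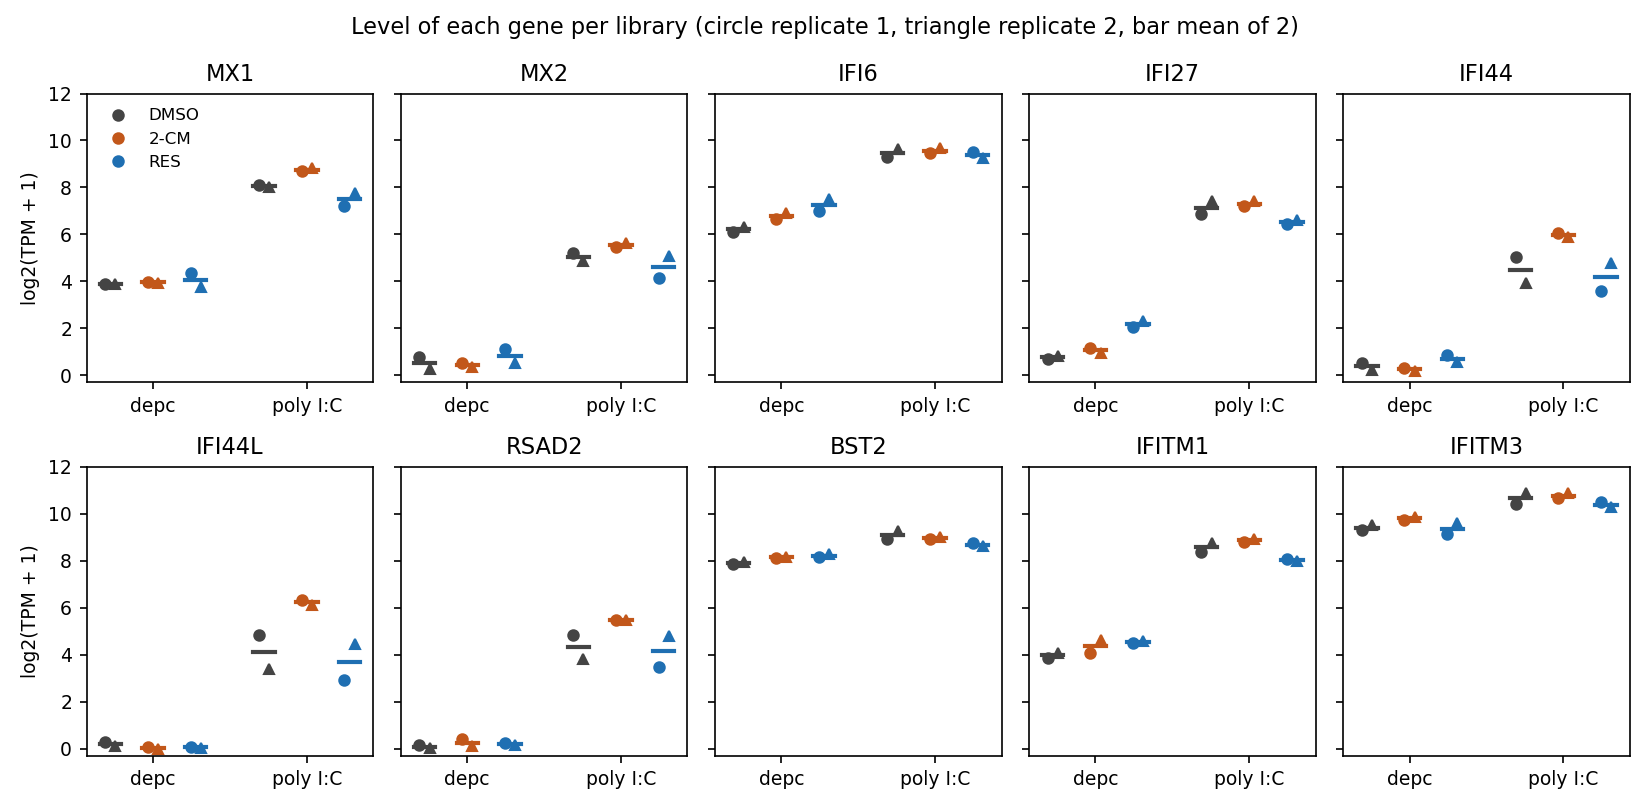
Level of the 10 genes in each of the 12 libraries as log2(TPM + 1), with circles for replicate 1, triangles for replicate 2, bars for the mean of 2 libraries and colours for the compound. All 10 genes lie higher with poly I:C than with depc under every compound, with small steps for BST2 and IFITM3. The poly I:C replicates of IFI44, IFI44L and RSAD2 are far apart under DMSO and RES and close under 2-CM.

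The first comparison asked how poly I:C acted on these genes under DMSO. All 10 rose, at a Benjamini-Hochberg adjusted p under 0.05 in limma, where 0.797% of the 17185 genes tested were called higher. Their median log2 fold change was 4.12, against -0.14 for all genes tested. In all 10 genes both poly I:C libraries lay above both depc libraries, which held for 11.5% of genes. The size of the response ran from 1.19 for BST2 to 6.38 for IFI27, which had the highest value of all genes tested on the log2(TPM + 1) scale. That order belongs to this scale, which understates low genes. In the authors' deposited table the log2 fold change of RSAD2 (8.09) exceeded that of IFI27 (7.20), the 13th among genes called there.

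Among the IFITM and MX genes, IFITM1 went from 13.7 and 15.9 TPM to 332 and 435, a 25.9-fold rise of the mean. Its log2 fold change was 4.59 ± 0.22 (SE), with an adjusted p of 3.53e-05 in limma. IFITM3, known for blocking fusion in late endosomes, went from 643 and 727 to 1390 and 1917 TPM, 2.41-fold (1.25 ± 0.21, adjusted p = 0.0228 in limma). As a ratio, the 2 paralogues therefore differed far more at rest than after poly I:C, although their gap in TPM was wider after it. MX1 went from 14.0 and 13.8 to 271 and 259 TPM, 19.1-fold (4.16 ± 0.24, adjusted p = 0.000137 in limma). MX2, which is known for acting at the nuclear pore, went from 0.704 and 0.187 to 35.3 and 28.0 TPM (4.51 ± 0.36, adjusted p = 0.00108 in limma), so MX1 stayed the more abundant of the 2 with and without poly I:C.

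IFI27 went from 0.619 and 0.752 to 114 and 170 TPM, a 207-fold rise (6.38 ± 0.24, adjusted p = 1.05e-05 in limma). Its relative IFI6, known for protecting cells from death and blocking flavivirus replication, went from 68.5 and 78.4 to 621 and 805 TPM, 9.71-fold (3.25 ± 0.22, adjusted p = 0.000336 in limma). IFI44 reached 31.5 and 14.0 TPM (4.09 ± 0.45, adjusted p = 0.00472 in limma), and IFI44L reached 27.9 and 9.41 TPM (3.91 ± 0.55, adjusted p = 0.0125). RSAD2 reached 27.3 and 13.0 TPM (4.23 ± 0.45, adjusted p = 0.00429 in limma). In these 3 genes replicate 1 was well above replicate 2, the ordering by GC content described above. BST2 went from 234 and 243 to 484 and 617 TPM, 2.31-fold (1.19 ± 0.15, adjusted p = 0.00890 in limma).

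Genes of GC content within 1 percentage point of each member had medians between -0.38 and 0.05 in this comparison, so no member's response lay near that of genes of like composition. After a correction for GC content the 10 were still called, where 7.63% of genes were called higher. The call of IFITM3 was lost in FPKM (1.43). The calls of BST2 and IFITM3 were lost after upper-quartile scaling and after median-of-ratios scaling, where 8 of the 10 and 0.559% and 0.570% of genes were called higher. Their log2 fold changes were no smaller there, at 1.32 and 1.35 for BST2 and 1.38 and 1.42 for IFITM3. The count was 5 without either DMSO depc library, 8 without either DMSO poly I:C library, 9 without any 1 of the 4 2-CM libraries and 3 in a fit of these 4 libraries alone. The share of all genes called higher fell in those fits too, to between 0.111% and 0.338% without 1 of these libraries and to 0.0349% in the fit of 4 libraries. In the authors' deposited table all 10 were called higher, where 0.751% of genes were, with log2 fold changes from 1.44 for BST2 to 8.09 for RSAD2.

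**Figure D3:**
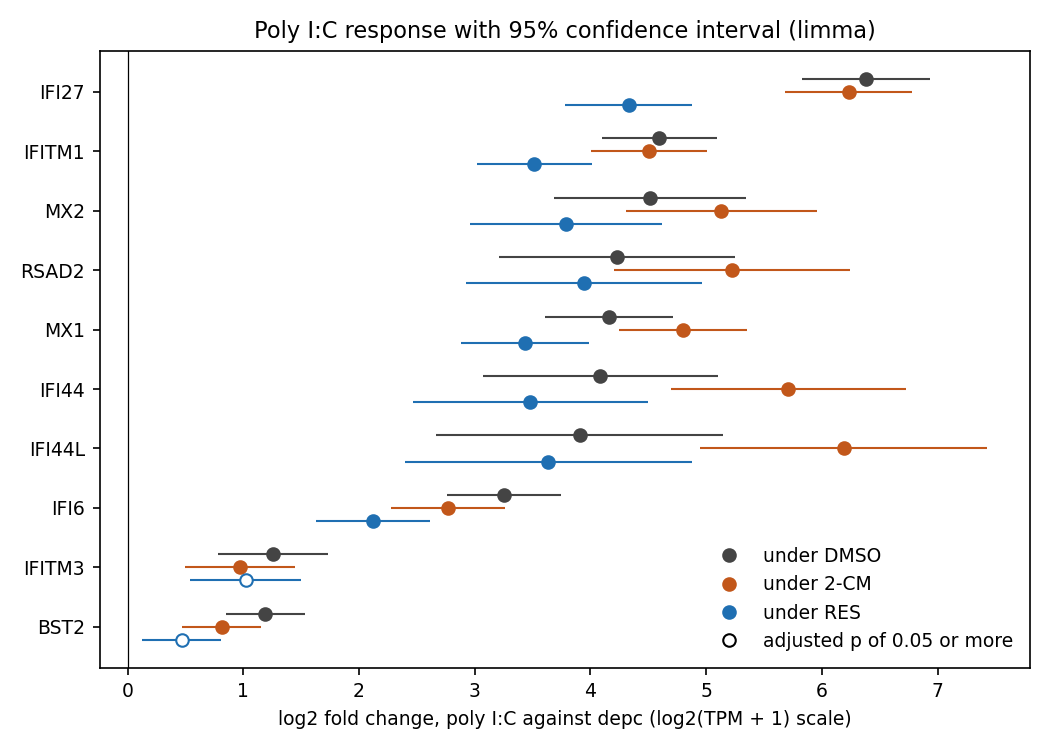
Log2 fold change of poly I:C against depc for the 10 genes on the log2(TPM + 1) scale, under DMSO, 2-CM and RES, with 95% confidence intervals from limma. Filled points have an adjusted p under 0.05, and BST2 and IFITM3 are at the bottom under all 3 compounds, with open points under RES.

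The second comparison was the same under 2-CM. All 10 rose again, but 37.5% of all genes tested were called higher here, so the count in this fit says little about the set. That share varied with the fit. Without the filter on low genes, 9 members and 1.04% of 40364 genes were called higher. Fits without 1 of the 4 2-CM libraries also called far fewer of all genes. With the filter and all libraries, the median log2 fold change of the 10 was 4.96, against 0.61 for all genes. In all 10 genes the poly I:C libraries lay above the depc libraries, which held for 62.6% of genes. IFI44L went from 0.0552 TPM in replicate 1 and 0 in replicate 2 to 79.1 and 69.2 TPM, a log2 fold change of 6.19 ± 0.55 with an adjusted p of 0.00129 in limma. IFI44 went from 0.252 and 0.144 to 66.3 and 57.3 TPM (5.71 ± 0.45, adjusted p = 0.000614 in limma), and RSAD2 from 0.336 and 0.0675 to 43.6 and 43.9 TPM (5.23 ± 0.45, adjusted p = 0.00110). For these 3 genes, genes of like GC content had median fold changes of 1.97, 1.81 and 1.56, above the 0.61 of all genes. After the GC correction their values were 4.32, 3.94 and 3.70, and all were called, where 13.8% of genes were called higher.

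MX1 went from 14.8 and 14.3 to 419 and 446 TPM, 29.6-fold (4.80 ± 0.24, adjusted p = 3.64e-05 in limma), and MX2 from 0.421 and 0.265 to 43.4 and 48.7 TPM (5.13 ± 0.36, adjusted p = 0.000342). IFI27 rose from 1.26 and 0.937 to 145 and 168 TPM, 142-fold (6.23 ± 0.24, adjusted p = 1.29e-05 in limma). IFITM1 rose from 16.0 and 23.8 to 441 and 494 TPM, 23.4-fold (4.51 ± 0.22, adjusted p = 2.98e-05 in limma), and IFI6 from 100.9 and 120 to 708 and 808 TPM, 6.85-fold (2.77 ± 0.22, adjusted p = 0.000614). These 5 genes were called under all scalings tried. Of all genes, 35.9% were called higher in FPKM, 24.3% after upper-quartile scaling and 20.3% after median-of-ratios scaling. The share was 37.7% in estimated reads as CPM and 13.8% after GC correction.

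BST2 and IFITM3 under 2-CM depended on the scale. BST2 went from 281 and 290 to 487 and 518 TPM (0.81 ± 0.15, adjusted p = 0.0240 in limma), and IFITM3 from 859 and 942 to 1658 and 1872 TPM (0.97 ± 0.21, adjusted p = 0.0270). The log2 fold change of BST2 was 0.18 after upper-quartile scaling, -0.04 after median-of-ratios scaling and 1.05 after GC correction, and that of IFITM3 was 0.34, 0.12 and 1.27. In the authors' deposited table BST2 had -0.03 (adjusted p = 0.902) and IFITM3 had 0.12 (adjusted p = 0.620), and the other 8 members were called higher, where 23% of genes were. Both calls were also lost in limma without any 1 of the 4 2-CM libraries. Those fits leave 1 library in a group, and they called far fewer of all genes too. The call of IFITM3 was lost as well with no filter on low genes. After GC correction both were called (adjusted p = 0.000750 for BST2 and 0.00182 for IFITM3 in limma), among the 13.8% of genes called higher, although that correction too brought the median of all genes to -0.01. So both transcripts rose relative to total TPM under 2-CM and after GC correction, and neither was called after upper-quartile or median-of-ratios scaling. The plot of responses by scaling shows that IFITM1 and IFI6 were also lower after those 2 scalings, where they stayed called.

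**Figure D4:**
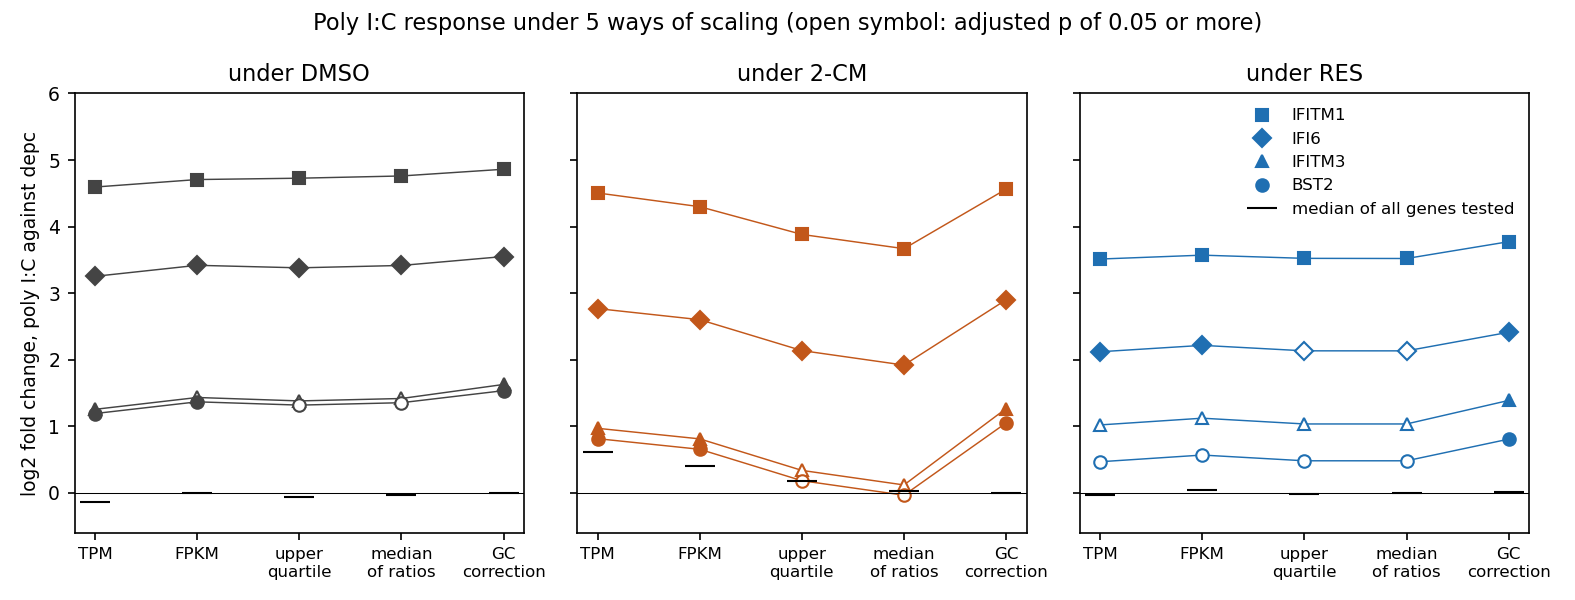
Log2 fold change of poly I:C against depc for IFITM1, IFI6, IFITM3 and BST2 under 5 ways of scaling, with filled symbols at an adjusted p under 0.05 in limma and dashes for the median of all genes tested. Under 2-CM the 4 genes and the median gene are lower in FPKM and after upper-quartile and median-of-ratios scaling than in TPM, with BST2 at -0.04 in the last, while GC correction lowers the median gene and not the 4 genes.

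Under RES, 8 of the 10 rose with poly I:C, where 0.198% of genes tested were called higher. The median log2 fold change of the 10 was 3.50, against -0.03 for all genes. Poly I:C libraries lay above depc libraries in all 10, which held for 6.05% of genes. IFI27 went from 3.09 and 4.02 to 84.7 and 96.0 TPM, 25.4-fold (4.33 ± 0.24, adjusted p = 0.000195 in limma). MX1 went from 19.3 and 12.5 to 146 and 218 TPM, 11.4-fold (3.44 ± 0.24, adjusted p = 0.000722 in limma), and MX2 from 1.15 and 0.437 to 16.4 and 33.0 TPM (3.79 ± 0.36, adjusted p = 0.00466). IFITM1 went from 21.5 and 23.2 to 273 and 258 TPM, 11.9-fold (3.51 ± 0.22, adjusted p = 0.000299 in limma). IFI6 went from 127 and 180 to 721 and 608 TPM, 4.32-fold (2.12 ± 0.22, adjusted p = 0.00634 in limma).

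The AT-rich genes rose under RES with replicates far apart. IFI44 went from 0.788 and 0.484 to 11.1 and 26.5 TPM (3.48 ± 0.45, adjusted p = 0.0196 in limma). IFI44L went from 0.0605 and 0.0233 to 6.61 and 21.0 TPM (3.63 ± 0.55, adjusted p = 0.0362 in limma), and RSAD2 from 0.189 and 0.121 to 10.2 and 27.2 TPM (3.95 ± 0.45, adjusted p = 0.0111). Here replicate 2 was the higher library, the reverse of the DMSO group. BST2, at 285 and 312 TPM with depc and 435 and 392 with poly I:C, had a log2 fold change of 0.47 with a 95% interval from 0.12 to 0.81 and an adjusted p of 0.224 in limma. IFITM3, at 560 and 783 TPM with depc and 1457 and 1241 with poly I:C, had 1.02 with an interval from 0.54 to 1.497 and an adjusted p of 0.0963 in limma. After GC correction both were called (0.81 and 1.39), making 10 of 10 where 1.44% of genes were called higher. The count was 5 without either RES depc library or without RES poly I:C replicate 2, 7 without RES poly I:C replicate 1, and 6 without any 1 of the DMSO depc and 2-CM libraries. Of all genes, between 0.0878% and 0.117% were called higher in those fits. The count of members was 7 after upper-quartile or median-of-ratios scaling, where 0.209% and 0.215% of genes were called higher. There IFI6 lost its call with its log2 fold change at 2.13 in both. The count was also 7 under the replicate block or without the low-gene filter, each of which lost IFI44L. Of all genes, 0.145% were called higher under that block, and 0.119% of 40364 genes without the filter. In a fit of these 4 libraries alone the count was 0, and 0% of all genes were called higher. In the authors' deposited table the same 8 genes were called higher, where 0.266% of genes were, and BST2 had 0.49 and IFITM3 0.99 with an adjusted p of 0.999 each.

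The next comparisons asked what each compound did without poly I:C. With depc, 2-CM against DMSO gave 0 calls among the 10, where 0.0349% of genes were called in either direction. At an unadjusted p under 0.05 limma gave 1 of the 10, IFI6, and 831 of 17185 genes. IFI6 stood at 100.9 and 120 TPM under 2-CM against 68.5 and 78.4 under DMSO, a difference of 0.58 with a 95% interval from 0.09 to 1.08 and an adjusted p of 0.721. The 10 differences ran from -0.17 for IFI44L, which was 0.45 after GC correction, to 0.58 for IFI6.

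RES against DMSO with depc gave 1 call, IFI27, where 0.838% of genes were called higher. IFI27 stood at 3.09 and 4.02 TPM under RES against 0.619 and 0.752 under DMSO, 5.18-fold, with a log2 difference of 1.43 ± 0.24 and an adjusted p of 0.0381 in limma. These levels rested on an estimated 63.2 and 76.7 reads under RES and 20.3 and 15.6 under DMSO. Both RES libraries were above both DMSO libraries, as for 25.7% of genes. The call was lost in FPKM (adjusted p = 0.109), after upper-quartile scaling (0.166), after median-of-ratios scaling (0.223), in estimated reads as CPM (0.166), with the replicate block (0.0571), in a fit of these 4 libraries alone (0.741) and with each of the 12 libraries left out in turn, where the adjusted p ran from 0.0572 to 0.291, while the difference stayed between 0.90 and 2.21 under every alternative tried. With the numbers of RES poly I:C exchanged in the block, chosen after seeing the data, IFI27, IFI6 and IFITM1 were called, where 6.65% of genes were called higher. IFI6 was next, at 127 and 180 TPM against 68.5 and 78.4, a log2 difference of 1.04 ± 0.22 with an adjusted p of 0.0635 in limma. After GC correction IFI27 (1.23) and IFI6 (0.84) were both called, where 6.31% of genes were called higher. IFITM1 was at 21.5 and 23.2 TPM against 13.7 and 15.9, a difference of 0.56 with an interval from 0.07 to 1.06. IFITM3 had a difference of -0.05 with an interval from -0.52 to 0.43.

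With poly I:C present, neither compound gave a call among the 10 in the fit without a replicate block. For 2-CM against DMSO, 0.105% of genes were called in either direction, and for RES against DMSO 0.157%. At an unadjusted p under 0.05, limma gave 4 of the 10 for 2-CM, among 5884 of 17185 genes, and 4 of the 10 for RES, among 2296. With a replicate block in which the numbers of RES poly I:C were exchanged, chosen after seeing the data, limma called IFI44L, IFI44, RSAD2 and MX1 higher under 2-CM, but 48.8% of all genes were called higher there. The 2-CM and RES comparisons share the DMSO libraries.

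Under 2-CM with poly I:C the widest differences were those of the 3 AT-rich genes. IFI44L stood at 79.1 and 69.2 TPM against 27.9 and 9.41 under DMSO, a log2 difference of 2.11 ± 0.55 with an adjusted p of 0.0975 in limma. IFI44 stood at 66.3 and 57.3 TPM against 31.5 and 14.0 (1.51 ± 0.45, adjusted p = 0.108 in limma), and RSAD2 at 43.6 and 43.9 against 27.3 and 13.0 (1.17 ± 0.45, adjusted p = 0.127). Genes of like GC content had median differences of 1.26, 1.20 and 1.02. After GC correction the differences were 0.89, 0.35 and 0.15. MX1 stood at 419 and 446 TPM against 271 and 259 (0.70 ± 0.24, adjusted p = 0.118 in limma), 0.27 after GC correction and -0.08 after median-of-ratios scaling. BST2 (-0.12), IFI6 (0.10), IFITM3 (0.11), IFI27 (0.16), IFITM1 (0.30) and MX2 (0.53) lay below the median of 0.59 for all genes. Their genes of like GC content had lower medians than that, at 0.27, 0.28, 0.25, 0.29, 0.29 and 0.55 in the same order. IFITM1 and MX2 lay close to those medians. MX2 was -0.14 after upper-quartile scaling, -0.23 after median-of-ratios scaling and -0.02 after GC correction. The signs of IFI6, IFITM3, IFI27 and IFITM1 depended on the scale too: they were -0.59, -0.58, -0.52 and -0.39 after upper-quartile scaling. They were negative as well in FPKM, in estimated reads as CPM, after median-of-ratios scaling and after GC correction, with no call. BST2 lay further below 0 than in TPM, at -0.42 in FPKM and -0.38 after GC correction. It was -0.81 ± 0.33 after upper-quartile scaling and -0.90 ± 0.39 after median-of-ratios scaling, again with no call.

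Under RES with poly I:C the 10 differences were negative, from -0.62 for IFI27 to -0.10 for IFI6, with a median of -0.41 against 0.28 for all genes tested. They were negative as well, and larger, after upper-quartile scaling (from -0.94 for IFI27 to -0.41 for IFI6) and after median-of-ratios scaling (from -0.96 to -0.43), with no call. IFI27 stood at 84.7 and 96.0 TPM against 114 and 170, a log2 difference of -0.62 with a 95% interval from -1.17 to -0.07 and an adjusted p of 0.314 in limma. MX1 stood at 146 and 218 against 271 and 259 TPM (-0.57, interval from -1.12 to -0.02, adjusted p = 0.357 in limma). IFITM1 stood at 273 and 258 against 332 and 435 TPM (-0.52, interval from -1.01 to -0.02, adjusted p = 0.355 in limma), and BST2 at 435 and 392 against 484 and 617 TPM (-0.40, interval from -0.75 to -0.06, adjusted p = 0.292). In these 4 genes both RES libraries were below both DMSO libraries, which held for 7.04% of genes, and in the other 6 the libraries overlapped. After GC correction these 4 were called lower, where 3.94% of genes were, with differences of -0.83 for IFI27, -0.79 for MX1, -0.72 for IFITM1 and -0.61 for BST2.

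**Figure D5:**
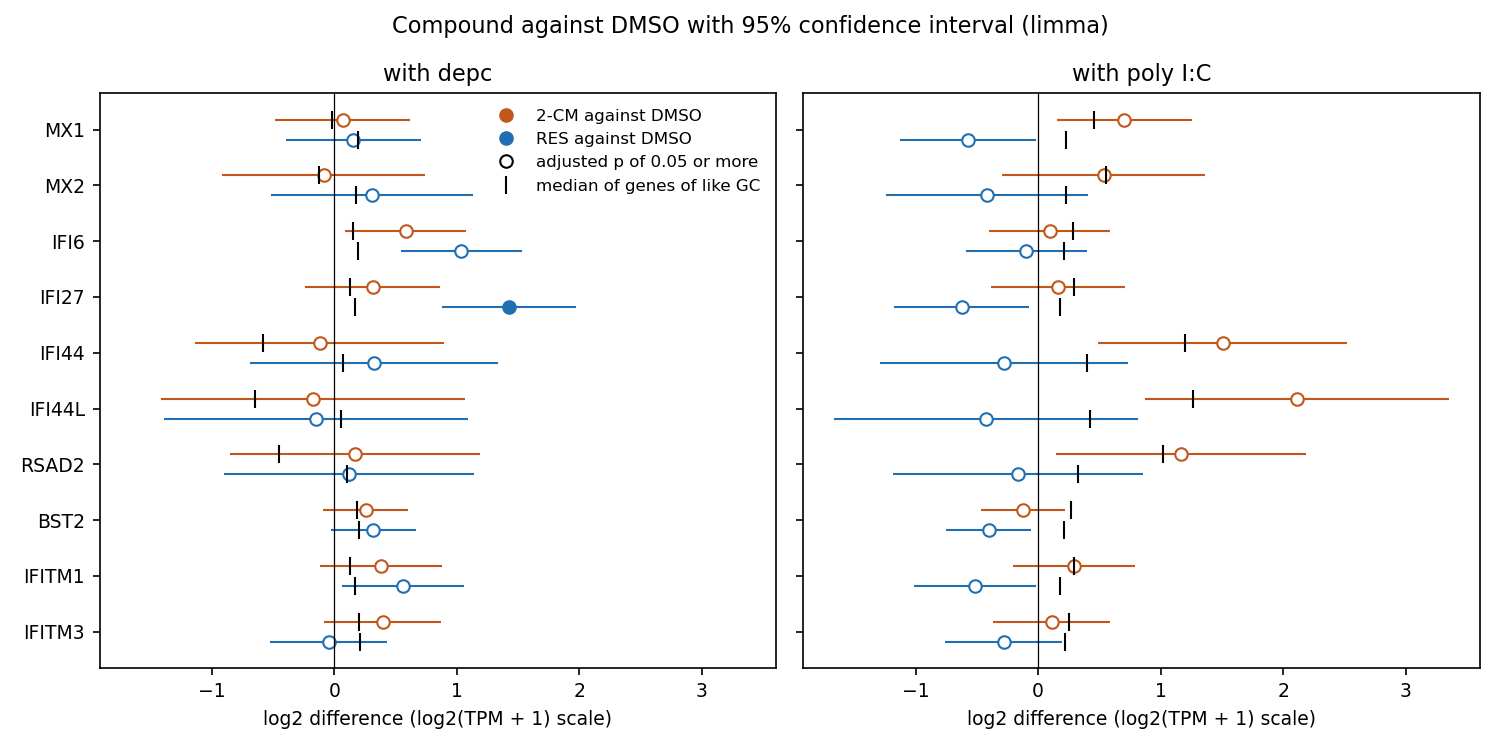
Log2 difference of 2-CM and RES from DMSO for the 10 genes, with depc (left) and with poly I:C (right), with 95% confidence intervals from limma, filled points at an adjusted p under 0.05 and short bars for the median of genes of like GC content. IFI27 under RES with depc is the filled point, the AT-rich genes lie close to or beyond their short bars under 2-CM with poly I:C, and the 10 RES values with poly I:C lie left of 0.

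Whether the response itself differed from that under DMSO was tested as an interaction. None of the 10 was called for 2-CM, where 0.0116% of genes were, nor for RES, where 0% were. For 2-CM, limma gave 2 of the 10 at an unadjusted p under 0.05, IFI44L and IFI44, among 5097 of 17185 genes. IFI44L differed by 2.28, with an interval from 0.53 to 4.04 and an adjusted p of 0.161, and IFI44 by 1.62 with the same adjusted p. Genes of like GC content differed by 1.92 and 1.81, and after GC correction the values were 0.45 for IFI44L and -0.11 for IFI44. The block with exchanged numbers called both higher, where 39.7% of genes were, and IFI6 lower, where 2.79% were. For IFI27 the difference was -0.15 with an interval from -0.93 to 0.63. It depended on the scale, at -0.88 ± 0.49 after upper-quartile scaling and -1.06 ± 0.54 after median-of-ratios scaling, so a smaller response under 2-CM was neither shown nor bounded closely. Other members moved as far: after median-of-ratios scaling IFI6 went from -0.49 to -1.50 ± 0.64, BST2 from -0.38 to -1.39 ± 0.55, IFITM3 from -0.29 to -1.30 ± 0.65 and IFITM1 from -0.09 to -1.09 ± 0.58, none of them called.

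For RES, limma gave 4 of the 10 at an unadjusted p under 0.05, IFI27, IFI6, BST2 and IFITM1, among 293 of 17185 genes. IFI27 differed by -2.05 with an interval from -2.83 to -1.27, an unadjusted limma p of 0.000229 and an adjusted p of 0.99996. IFI6 differed by -1.13 (interval from -1.83 to -0.44), IFITM1 by -1.08 (from -1.79 to -0.38) and BST2 by -0.72 (from -1.21 to -0.24). Each value is the poly I:C term minus the depc term of RES against DMSO. For IFI27 the depc term was 1.43 and the poly I:C term -0.62, and for IFI6 they were 1.04 and -0.10. A weaker response of the set under RES was therefore not shown at the threshold over all genes, with the 10 differences between -2.05 and -0.23. That of IFI44L, -0.27, was 0.36 with a pseudocount of 0.1.

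Neighbouring and related genes were measured alongside. CMPK2, a mitochondrial nucleotide kinase, lies beside RSAD2 on the opposite strand and overlaps its gene model, and rose under DMSO (3.70 ± 0.32, adjusted p = 0.00142 in limma), 2-CM (4.95) and RES (3.55). IFITM2, a close paralogue of IFITM3, lies beside IFITM1 and overlaps it through 1 of its 6 transcripts. It stood at 117 and 126 TPM in DMSO with depc and 178 and 248 with poly I:C (0.78 ± 0.24, adjusted p = 0.104 in limma), and was not called under 2-CM or RES either. The overlapping IFITM2 transcript took between 0% and 15.7% of the TPM of IFITM2 and between 0 and 48.2 TPM. Reads of IFITM1 and IFITM2 could thus be split differently between libraries, and values of both are uncertain at least to that extent. Sharing of reads among the near-identical IFITM genes by other routes was not measured. The IFI27 neighbours IFI27L1 and IFI27L2 were not called in any of the 3 responses, with log2 fold changes of -0.13 and -0.05 under DMSO. Of the 14 related genes 10 were tested, with 3 higher and 1 lower under DMSO, 4 higher and 2 lower under 2-CM and 1 higher under RES. Over all genes tested, 3.28% were called lower under DMSO and 11.8% under 2-CM, beside the 0.797%, 37.5% and 0.198% called higher under DMSO, 2-CM and RES, so the shares under 2-CM lay near those of all genes. AL445490.1, on the opposite strand over IFI6, went from at most 0.825 TPM with depc to between 8.20 and 20.0 with poly I:C. No strand option was recorded for the abundance step, so reads in the stretch shared by the 2 genes may have been assigned to either. This was not tested. The noncoding genes that overlap MX1 (AP001610.2) and IFITM3 (5 genes) reached at most 1.02 and 1.81 TPM.

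Of 22 other interferon-induced effectors, 13 rose under DMSO, 22 under 2-CM and 9 under RES, with median log2 fold changes of 2.32, 4.06 and 2.04. Of all genes tested, 0.797%, 37.5% and 0.198% were called higher in these comparisons. OAS2, which makes the activator of RNase L, had 6.24 ± 0.30 under DMSO (adjusted p = 3.53e-05 in limma), and ISG15, a ubiquitin-like modifier, had 3.44 ± 0.30 (adjusted p = 0.00144). Of the 22 genes of interferon production and signalling, 8 rose and 1 fell under DMSO, 14 rose and 2 fell under 2-CM and 3 rose under RES, where 3.28% of all genes were called lower under DMSO and 11.8% under 2-CM. The ligand IFNL1 went from 0 and 0.342 TPM to 9.89 and 14.1 under DMSO (3.47 ± 0.32, adjusted p = 0.00172 in limma). IFNB1 was listed at 0 with depc and reached 2.91 and 0.933 TPM after poly I:C (1.46, adjusted p = 0.0535 in limma). IRF9 went from 1.43 and 1.44 to 38.2 and 57.1 TPM (4.29 ± 0.25, adjusted p = 0.000137 in limma). The kinase TYK2 fell by 0.90 under DMSO (adjusted p = 0.0414 in limma).

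Over the 12 libraries, the genes whose log2(TPM + 1) was most like the mean of the 10 were OAS2, OAS1, OAS3, AL445490.1 and HSH2D, with Pearson correlations from 0.992 to 0.997. The points fall into depc and poly I:C libraries, so such values mainly record that shared step. The genes most like IFI44 were IFIT1, RSAD2 and CXCL10, and those most like IFI27 were OASL, IRF9 and OAS1. BST2 and IFITM3 had weaker nearest patterns, BATF2 at 0.963 and ISG15 at 0.949.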

How the data were processed

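RNA of 12 libraries was analysed from deposited transcript abundances. Per the submitters' processing notes, bcl2fastq 2.20, HISAT2 2.1.0, StringTie, DESeq2 and build hg38 were used. StringTie 2.0.4 was run on GENCODE 32 transcripts only, with no strand option, per the file headers, and gave coverage, FPKM and TPM per transcript. The authors' deposited comparison tables hold normalised counts averaged over libraries (a signal), log2 fold changes and their errors, the score of the test, and each p-value before and after adjustment.

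TPM was summed per gene in Python 3.11.15 with pandas 2.3.3. Reads were estimated as coverage times length over the read length. limma 3.58.1 in R 4.3.3 fitted 6 group means to log2(TPM + 1) in all 12 libraries with a variance trend (6 residual and 2.74 prior degrees of freedom), for genes that reached a TPM of 1 in 2 or more libraries. Genes were called at a two-sided Benjamini-Hochberg adjusted p under 0.05 over 17185 genes, and intervals are 95%. Fold changes on this scale understate those of low genes. An exact permutation test of 2 against 2 cannot go below 0.333, so none was used. Alternatives changed the scaling, filter, pseudocount, block, libraries or a GC trend (lowess span 0.3, 17025 genes). The 10 genes are all named, and related lists are given by counts with examples. The genes, lists and examples were chosen with earlier results of these data known.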

Additional observations from a re-analysis of the deposited data

How the results depend on the processing

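Depth limits the genes near 0 with depc: RSAD2 and IFI44L rested on at most 34.4 estimated reads in each depc library. With 2 libraries a group, the spread is borrowed across groups. In a fit of only the groups compared, the members called fell from 10 to 3 for poly I:C under DMSO, from 8 to 0 under RES and from 1 to 0 for RES against DMSO with depc, while the share of all genes called higher fell from 0.797% to 0.0349%, from 0.198% to 0% and from 0.838% to 0%. That last count was also 0 in FPKM, after upper-quartile scaling, after median-of-ratios scaling and in estimated reads as CPM. There 0.25%, 0.0698%, 0.0349% and 0.716% of all genes were called higher. After GC correction the count was 2, where 6.31% of all genes were called higher. For RES against DMSO with poly I:C that correction called 4 lower in place of 0, while the share of all genes called lower went from 0.0873% to 3.94%. Leaving out 1 library could lose calls of members in the poly I:C responses under DMSO, 2-CM and RES. It lost the call of IFI27 for RES against DMSO with depc in all 12 cases. Wherever a call was lost, fewer of all genes were called higher in that comparison than with all 12 libraries. With 1 library left in a group, it is assumed to vary like the others.

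Some values changed sign. After median-of-ratios scaling BST2 with poly I:C under 2-CM was -0.036 and MX1 in 2-CM against DMSO with poly I:C was -0.076, and after GC correction the response of IFI44 under 2-CM minus that under DMSO was -0.107. The cause was not tested. Of the 48 gene values that are poly I:C responses or had an unadjusted p under 0.05, 474 comparisons under settings that kept all libraries stayed on the same side of the threshold and in the same direction, 34 lost the call, 17 gained it and 3 changed sign, while leaving out a library gave 516, 60, 0 and 0. Of the other 42 gene values, none of them called, 13 changed sign under 1 or more settings that kept all libraries, with 0 calls at the changed sign.

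Replicate numbers were not taken as pairing all 6 groups: deviations of same-numbered libraries correlated at 0.15 to 0.76 in the 10 pairs among 5 groups, which deviate together, but at -0.31 to -0.80 with RES poly I:C. With the replicate block, 7 members were called for poly I:C under RES (0.145% of all genes were called higher) and 0 for RES against DMSO with depc (0.175%), and the other 7 counts did not move. With the RES poly I:C numbers exchanged, an alternative chosen after seeing the data, the block called 10 members higher for poly I:C under RES, where 1.09% of all genes were, 3 for RES against DMSO with depc, where 6.65% were, and 4 for 2-CM against DMSO with poly I:C, where 48.8% were. For the difference of response under 2-CM it called 3, of them 2 higher, where 39.7% of all genes were, and 1 lower, where 2.79% were.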
